A study of Mus musculus with 125 samples.

Results

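Fatty acid uptake by endothelium was followed through 8 genes: Meox2, Tcf15, Pparg, Gpihbp1, Lpl, Cd36, Fabp4 and Fabp5. They were chosen by name, as genes with a known part in moving fatty acids from the blood across the vessel wall, out of 21887 protein-coding genes whose surroundings were measured in ATAC-seq and 27998 genes counted in single cells. ATAC-seq, which cuts and tags open chromatin, gave 66 peak lists from mouse tissue, and each gene was followed through every peak that overlapped it or lay within 50 kb of it. The same genes were counted in 5 single-cell RNA-seq libraries of brain, in barcodes that held at least 200 genes, at most 10% mitochondrial counts and at least 3 of the 6 endothelial genes Cdh5, Pecam1, Egfl7, Esam, Tie1 and Kdr. This left 5644 of 17176 barcodes at E9.5, 6347 of 8310 at E12.5, 3786 of 3997 at E16.5, 4778 of 7305 at P8 and 3154 of 5552 in the adult.

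The ATAC-seq libraries came from nuclei labelled endothelial or input, the latter taken from the whole tissue. Endothelial libraries numbered 12 in adult mice, 14 at P6 and 11 at E12, and input libraries numbered 10, 16 and 3. Adult and P6 samples covered brain, retina, heart, kidney, liver and lung, with 2 or 3 endothelial libraries an organ and age, and E12 samples covered brain, heart and trunk. Adult mice were 2 months old. Every ATAC-seq group, input included, came from tissue of mice given 0.015 mg/kg tamoxifen, which in the adults was injected 7 days before collection, and a GFP reporter was checked in the vessels of each tissue. The driver of the reporter, the strain, the number of animals in a library and the step that set labelled nuclei apart are not given in the sources used here. The group labelled P6 was collected at P7 and the group labelled E12 at E12.5, per the labels' protocols. Adult heart and adult brain have 1 input library each, so their inputs have no replicate. The single-cell libraries came from cells held on anti-CD31 beads, from brain of embryos and from cortex at P8 and in the adult, with 1 library an age. No label says that replicates came from separate animals, so p-values measure only the spread between these libraries.

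Long-chain fatty acids reach tissue either bound to albumin or packed as triglyceride in lipoproteins. Lipoprotein lipase (Lpl), held on the luminal face of capillaries by Gpihbp1, frees fatty acids from triglyceride, and the scavenger receptor Cd36 and the cytosolic binding proteins Fabp4 and Fabp5 take part in carrying them across the cell. The homeobox factor Meox2 and the basic helix-loop-helix factor Tcf15 are known as a pair that favours fatty acid transport genes in heart endothelium, and the nuclear receptor Pparg, which fatty acids activate, binds control regions of Fabp4 and Cd36. Heart muscle burns mostly fatty acids, while brain endothelium is sealed and is known for the lipid transporter Mfsd2a.

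The peak lists held 19464 to 144197 peaks from 10139069 to 59082479 tags, and 3.02 to 41.8% of a library's tags lay in its peaks. Levels are therefore given as the tags in peaks of a gene's 50 kb window after the tags in all peaks of a library were scaled to a total of 1000000 (CPM), and a level of 0 means that no peak was called there. In nuclei of a whole preparation, fewer nuclei with an open region and a weaker signal in each cannot be told apart. The windows of the 6 endothelial genes above summed to 2815 to 2939.6 in adult heart endothelium, 1956 to 2640.4 in kidney, liver and lung, 1421 to 1471 in brain and 545 to 874 in retina, against 282 to 1163 in adult inputs. The adult retina libraries labelled endothelial also held 2034 to 2124 in the windows of 5 retinal neuron genes, against 532 to 676 in adult peripheral endothelium and 1928 to 2501 in adult retina input. Tests of the 8 genes that include retina are therefore given with and without it. The aligned files' names show 4 kinds of read processing, and every heart library is of a kind that no other organ has, so within endothelial libraries heart and that processing cannot be told apart. A difference was called at an adjusted p under 0.05 by limma and a log2 difference of at least 1. All 8 genes passed the filter on low values in all 7 comparisons.

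Promoters of 3 of the 8 genes could be matched, and they are shown because peaks within 1 kb of these starts differed between organs. The bases run from 250 before the start to the base before it, from RefSeq on GRCm38.p6, and capitals mark the E-box, the 6 letters CANNTG that basic helix-loop-helix factors such as Tcf15 are known to bind. Tcf15, Fabp4, Fabp5, Gpihbp1 and Lpl are named only.
Meox2, chr12:37108290-37108539, plus strand: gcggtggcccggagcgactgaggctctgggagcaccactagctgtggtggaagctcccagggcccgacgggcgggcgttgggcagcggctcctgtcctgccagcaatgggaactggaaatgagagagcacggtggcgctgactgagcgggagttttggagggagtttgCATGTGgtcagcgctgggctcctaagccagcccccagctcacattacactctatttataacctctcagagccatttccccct
Cd36, chr5:17835897-17836146, minus strand: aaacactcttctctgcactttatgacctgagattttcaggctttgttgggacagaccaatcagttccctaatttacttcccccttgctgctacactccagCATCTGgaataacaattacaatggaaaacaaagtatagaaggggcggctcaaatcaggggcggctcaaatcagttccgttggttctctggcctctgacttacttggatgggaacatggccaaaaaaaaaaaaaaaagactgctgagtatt
Pparg, first start, chr6:115360894-115361143, plus strand: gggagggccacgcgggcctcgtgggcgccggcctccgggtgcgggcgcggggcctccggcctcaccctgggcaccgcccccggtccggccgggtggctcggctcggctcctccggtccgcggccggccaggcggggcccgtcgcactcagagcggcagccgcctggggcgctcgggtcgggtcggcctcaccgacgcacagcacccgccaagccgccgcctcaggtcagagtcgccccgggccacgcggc
Pparg, the third start, chr6:115421816-115422065, plus strand: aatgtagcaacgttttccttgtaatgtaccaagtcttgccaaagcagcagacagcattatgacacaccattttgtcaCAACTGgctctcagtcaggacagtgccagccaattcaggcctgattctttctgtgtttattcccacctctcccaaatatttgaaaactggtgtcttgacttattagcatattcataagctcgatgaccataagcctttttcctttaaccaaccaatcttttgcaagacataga
An E-box lay at -82 from the Meox2 start, at -150 from the Cd36 start and at -173 from the third Pparg start, and none lay before the first Pparg start. The second Pparg start, close to the first, is not shown, and its promoter held an E-box at -247. E-boxes are common, and 66.2% of 32851 promoters of this length held at least 1, counting either strand, which read alike for these letters. The homeodomain letters TAATTA, searched on both strands, were in none of the promoters shown and in 4.84% of all. AGGTCA, the core of sites that Pparg is known to bind, was in the Cd36 promoter and before the first and the second Pparg starts, the latter at -9, and in 14% of all promoters on either strand. The tandem repeat of AGGTCA with a single base between its copies was in none of these and in 0.0335% of all. The first Pparg promoter was rich in G and C, at 82.4% against a median of 52.4% over all promoters, and Cd36 and the third Pparg start stood at 43.2% and 40.8%.

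A peak within 1 kb of the Meox2 start was called in 11 of 11 endothelial libraries at E12, 11 of 14 at P6 and 5 of 12 in the adult. Both adult heart libraries had it, and so did 1 of 2 from each of kidney, lung and brain, while liver and retina had none. At the Cd36 start a peak was called in 2 of 2 adult endothelial libraries of heart, kidney and liver and 1 of 2 of lung, and in none of brain and retina. The first Pparg start had a peak in all E12 and P6 endothelial libraries and in 6 of 12 adult ones, those of heart, kidney and liver. Within 1 kb of the third Pparg start 0 of 11 endothelial libraries at E12, 3 of 14 at P6 and 4 of 12 in the adult had a peak, and both heart libraries were among them at P6 and in the adult. No endothelial library had a peak within 500 bases of that start, so these peaks lay outside the bases shown. Adult endothelial lists were shorter, with a median of 36756 peaks against 69068 at P6, and a peak missing from a short list may have missed the threshold. Input libraries had peaks within 1 kb of these starts too, and of the third Pparg start in 7 of 10 adult inputs.

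**Figure D1:**
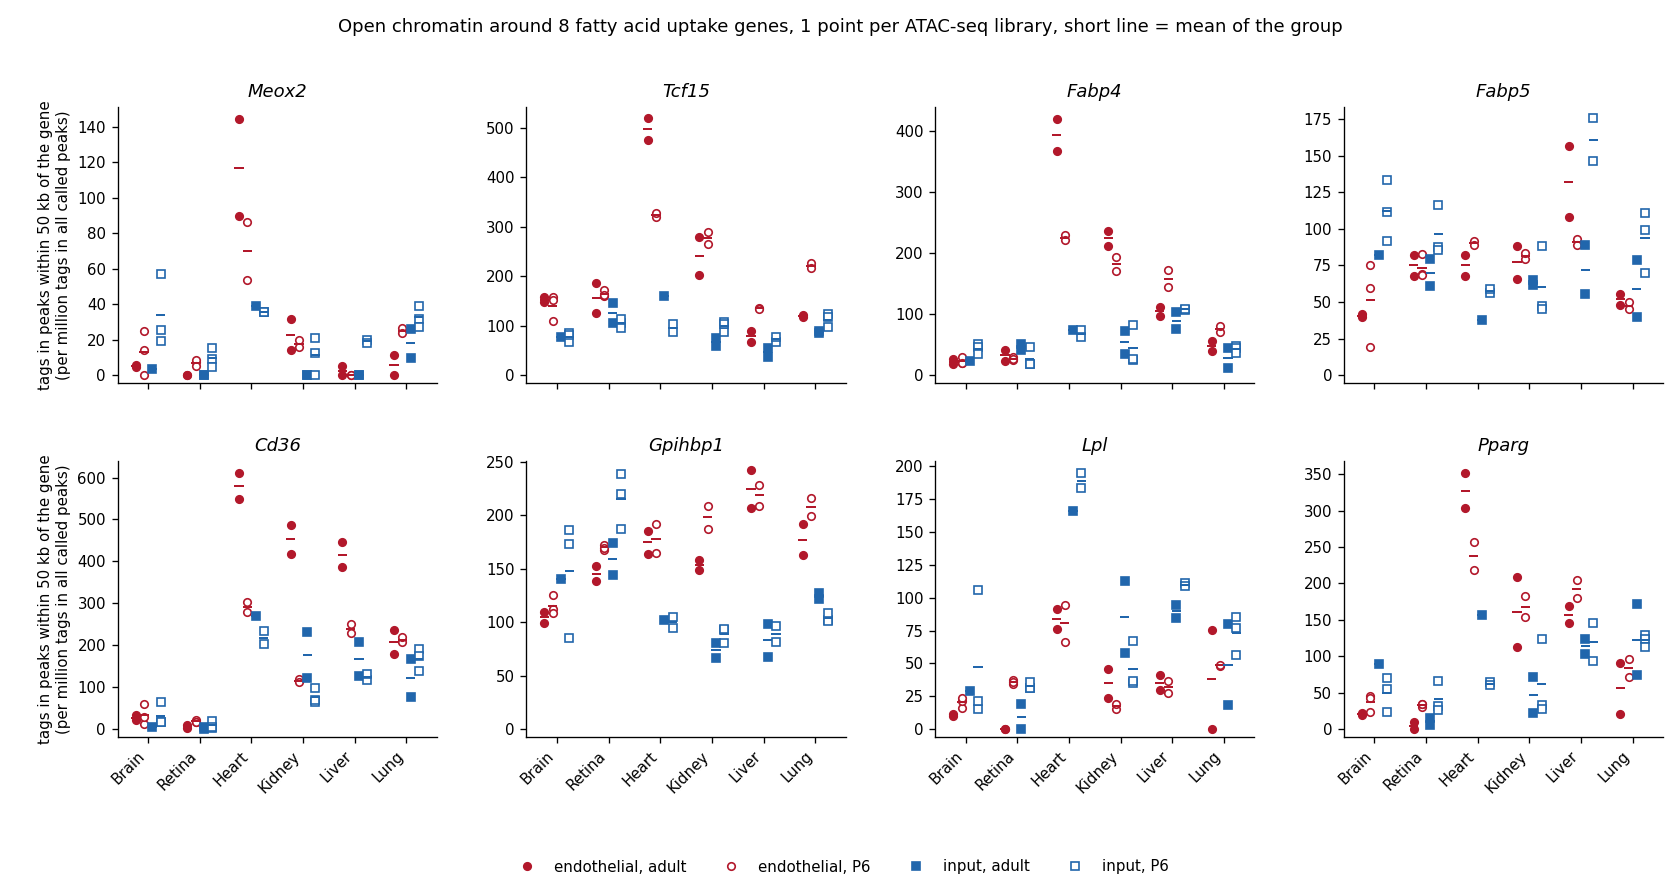
Open chromatin within 50 kb of the 8 genes, in CPM of tags in peaks (vertical axis), by organ (horizontal axis). Each point is 1 ATAC-seq library and the short line is the group mean. Adult heart endothelium (filled red circles) stands highest at Meox2, Tcf15, Fabp4, Cd36 and Pparg, while for Lpl the heart inputs (blue squares) lie above it.

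In the adult, 6 of the 8 genes were more open in heart endothelium than in the mean of the other 5 organs' endothelium: Meox2, Tcf15, Pparg, Lpl, Cd36 and Fabp4. The largest difference was at Meox2, with a log2 difference of 3.63, and the median over the 8 genes was 2.34, against -0.13 over all genes tested. Over all 20232 genes tested, 9.54% were called in either direction and 3.82% were higher in heart. Gpihbp1 and Fabp5 did not pass. After each organ's own input was subtracted, 0 of the 8 genes were called, where 3.58% of 20953 genes were, and 2 of the 8 had an unadjusted p under 0.05, as had 14.3% of all genes. Without retina 5 genes were higher in adult heart, where 3.28% of all genes were: Meox2 (3.39), Fabp4 (2.37), Pparg (2.13), Tcf15 (1.83) and Cd36, whose difference went from 2.45 to 1.63.

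Of the transcription factors, Meox2 (chr12:37108540-37179534) held 89.8 and 144 CPM in the adult heart libraries. Among the other adult endothelial libraries, kidney held 14.1 and 31.3, lung 11 and 0, brain 5.57 and 4.29, liver 0 and 4.85, and both retina libraries 0. Both heart libraries thus lay above all 10 others, and below kidney the organs overlapped. The log2 difference was 3.63 ± 0.48 (SE; limma, adjusted p = 2.12e-05). Adult heart input stood at 38.9, above every endothelial library outside the heart.

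Tcf15 (chr2:152143056-152149097) held 519 and 476 CPM in adult heart endothelium. Kidney held 203 and 280, retina 187 and 126, brain 148 and 158, lung 122 and 117, and liver 89.5 and 67.6. Heart lay above kidney, and kidney above the rest, while retina and brain overlapped. The difference for heart was 1.80 ± 0.14 (SE; limma, adjusted p = 5.11e-08). Heart input held 161, so that both heart endothelial libraries were well above it. The Tcf15 window also holds Scrt2 and Srxn1, whose peaks cannot be set apart from its own.

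Pparg (chr6:115360879-115490404) held 303 and 351 CPM in adult heart endothelium, 113 and 209 in kidney, and 146 and 168 in liver. Lung held 91.1 and 20.2, brain 19.4 and 22.4, and retina 0 and 9.48. Heart lay above all others, kidney and liver overlapped, and lung overlapped brain. The difference was 2.76 ± 0.37 (SE; limma, adjusted p = 2.5e-05), and heart input held 156.

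At the lipase and its anchor the 2 genes went apart. Lpl (chr8:68880555-68906932) held 91.6 and 76.0 CPM in adult heart endothelium, while lung held 75.5 and 0, kidney 45.8 and 23.7, liver 29.6 and 41.0, brain 11.4 and 10.3, and both retina libraries 0. The 2 lung libraries span nearly the whole range, and heart lay only just above the higher one. The difference was 2.23 ± 0.55 (SE; limma, adjusted p = 0.00473), and it was not called without the first heart library (2.1, limma, adjusted p = 0.0688) or without retina (1.75, limma, adjusted p = 0.0518). Heart input held 166, more than either heart endothelial library. Gpihbp1 (chr15:75596630-75598213) was open in every library, and liver held 242 and 206, lung 163 and 191, heart 163 and 186, kidney 148 and 158, retina 138 and 152, and brain 99.1 and 110. Liver led and brain was lowest, and heart did not differ from the mean of the others beyond the error (0.16 ± 0.09, limma, adjusted p = 0.2). Its window also holds Ly6h and Zfp41.

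The uptake receptor Cd36 (chr5:17781690-17888959) was also ordered by organ. Heart held 549 and 610 CPM, kidney 487 and 418, liver 386 and 445, lung 236 and 179, brain 33.7 and 21.0, and retina 9.73 and 3.14. The order heart, kidney and liver, lung, brain, retina held without overlap except between kidney and liver. The difference for heart was 2.45 ± 0.30 (SE; limma, adjusted p = 7.57e-06), and heart input held 269.

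Of the binding proteins, Fabp4 (chr3:10204342-10208616) held 419 and 367 CPM in adult heart endothelium. Kidney held 212 and 236, liver 97.2 and 112, lung 38.9 and 55.8, retina 23.1 and 41.4, and brain 25.7 and 18.3. Heart, kidney and liver followed each other without overlap, and lung overlapped retina. The difference was 2.59 ± 0.18 (SE; limma, adjusted p = 1.37e-08), and heart input held 74.1, far below the heart endothelial libraries. The window also holds the related genes Pmp2, Fabp9 and Fabp12. Fabp5 (chr3:10012585-10016610) was led by liver, with 108 and 157, and ended with brain, with 39.7 and 41.6. Its heart libraries, with 82.1 and 68.0, lay among the others, whose median was 67.0, and the difference was 0.10 ± 0.28 (SE; limma, adjusted p = 0.826).

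Beside these differences, the heart endothelial libraries held the highest summed endothelial windows, given above. Of other cells' windows, the 6 cardiomyocyte genes summed to 392 to 440.3 in adult heart endothelium, 494 to 903 in the other adult endothelium and 1631 in adult heart input, and the 6 adipocyte genes to 904 to 959 against 989.8 to 1272, though 1 of the 6 adipocyte genes was called higher. The pericyte, epithelial and lung epithelial lists had medians of 0.12, 0.09 and 0.11 with no gene called higher. The part of endothelial content and of these windows in the result was not tested. Set against kidney, liver and lung alone, an alternative chosen after seeing the data, 4 genes were higher in adult heart, where 3.88% of all genes were. They were Meox2 (3.33), Tcf15 (1.89), Fabp4 (1.87) and Pparg (1.61), with adjusted p by limma of 9.97e-05, 5.6e-08, 1.22e-06 and 0.0052. Cd36 (0.77, limma, adjusted p = 0.0785) and Lpl (1.5, limma, adjusted p = 0.0664) were not called in that comparison.

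After subtraction of each organ's own input, the heart difference at Fabp4 was 1.80 ± 0.56 (SE; limma, adjusted p = 0.0621) and at Tcf15 it was 0.77 ± 0.26 (SE; limma, adjusted p = 0.0959). Pparg stood at 1.37 ± 0.77 and Meox2 at 1.06 ± 0.82. At Cd36 and Lpl the values were -0.06 ± 0.67 and 0.20 ± 0.99. Heart led among the inputs at these genes too: its input held 269 CPM at Cd36 and 166 at Lpl, and no other adult input held more than 231 and 113. The adult heart input is a single library, and the errors are wide.

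**Figure D2:**
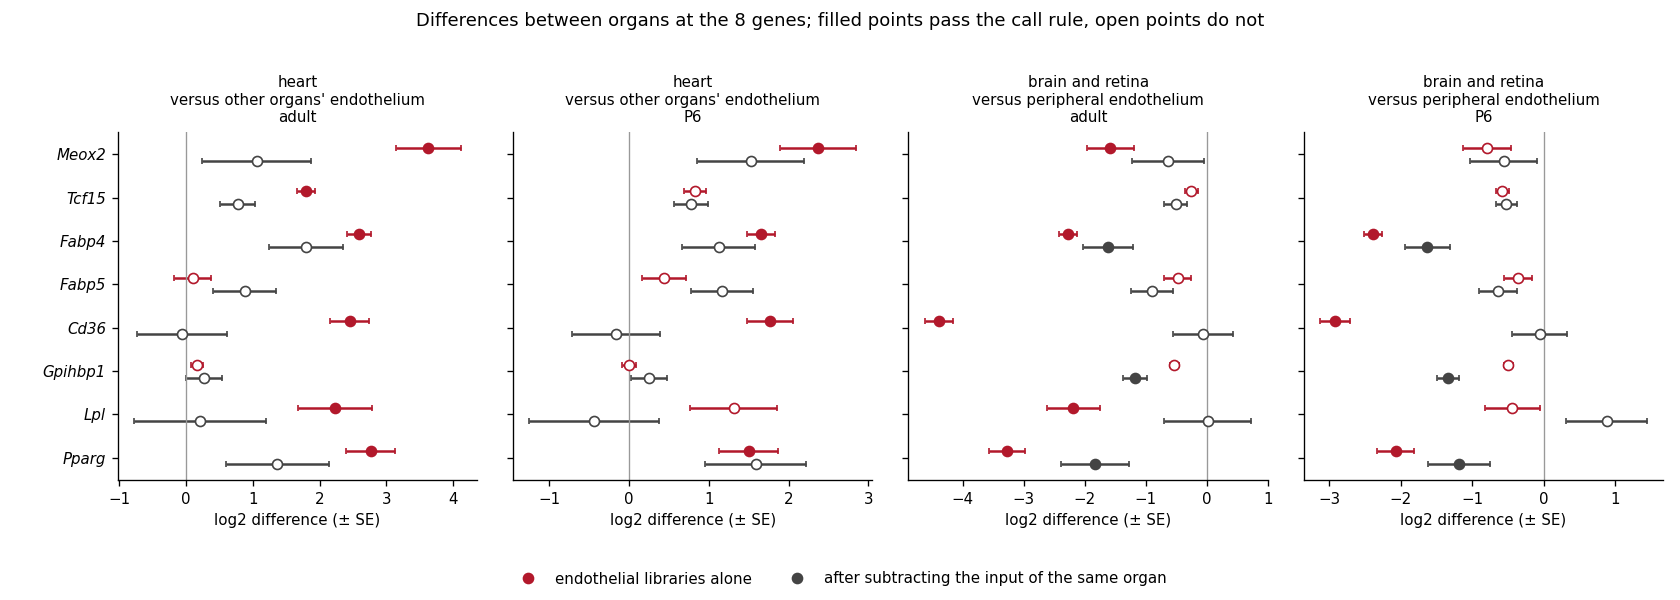
Log2 differences of the 8 genes between organs (horizontal axis, ± SE), for heart against the other organs and for brain and retina against peripheral organs, in the adult and at P6. Red points compare endothelial libraries alone and grey points subtract the input of the same organ; filled points were called. No grey point is filled in the heart panels, while Fabp4, Gpihbp1 and Pparg are filled in both brain and retina panels.

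At P6, 4 of the 8 genes were higher in heart endothelium: Meox2, Pparg, Cd36 and Fabp4. Of all genes, 3.6% were called and 2.07% were higher, and the members' median was 1.41 against -0.09 over all genes. None of the 8 was called when the number of peaks was used in place of tags. Meox2 held 53.5 and 86.3 CPM in heart, and at most 26.4 in the other 12 libraries. The Meox2 difference was 2.37 ± 0.48 (SE; limma, adjusted p = 0.00238), and it was lost without the second heart library (2.05, limma, adjusted p = 0.0746). Fabp4 held 230 and 220.4 in heart, against 19.2 to 193 elsewhere, a difference of 1.65 ± 0.18 (SE; limma, adjusted p = 1.36e-05). Heart lay above every other library at both genes. Windows of some other cells were higher in P6 heart endothelium as well. Called higher were 3 of 7 mesenchymal genes (median 0.67), 2 of 7 erythroid genes (0.25) and 1 of 6 cardiomyocyte genes (0.30). The hepatocyte list had 1 of 5 called higher (median -0.19), and the neural list 1 of 8 higher and 1 lower (-0.17). The kidney epithelial list had 1 of 5 lower (-0.50). The mesenchymal windows summed to 472 to 473.5 in P6 heart endothelium and to 160 to 434 in the other P6 endothelium, and their part in the result was not tested.

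Cd36 at P6 held 278 and 302 CPM in heart and 11.8 to 249 in the other libraries, and the difference was 1.77 ± 0.29 (SE; limma, adjusted p = 0.000619). Pparg held 257 and 218 in heart and 23.2 to 204 elsewhere, with a difference of 1.5 ± 0.37 (SE; limma, adjusted p = 0.00823) that was lost without either heart library (1.38 and 1.62, limma, adjusted p = 0.155 and 0.0731). Tcf15, with 319 and 328 in heart and 110 to 289 elsewhere, differed by 0.83 ± 0.14 (SE; limma, adjusted p = 0.000636), which is under the size required. Lpl differed by 1.31 ± 0.55 (limma, adjusted p = 0.0923), Fabp5 by 0.44 ± 0.27 and Gpihbp1 by 0.00 ± 0.09. Heart stood above all other libraries at Tcf15 and Lpl as well, and overlapped them at Fabp5 and Gpihbp1. Against kidney, liver and lung alone, where 2.41% of genes were higher, Meox2 was the one member called (2.28, limma, adjusted p = 0.00624). With own input subtracted 0 of the 8 were called, where 3.27% of genes were, and 5 stood higher in heart with an unadjusted p under 0.05 (Tcf15, Fabp5, Pparg, Fabp4 and Meox2), as did 6.93% of all genes. Without retina the same 4 genes were called, Meox2 at 2.30, Fabp4 at 1.35, Cd36 at 1.29 and Pparg at 1.2, where 1.71% of genes were higher.

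Endothelium of brain and retina was less open than that of heart, kidney, liver and lung at 5 of the 8 genes in the adult: Cd36, Pparg, Fabp4, Lpl and Meox2. Of all genes, 15.3% were called and 4.67% were lower, and the members' median was -1.89 against 0.19 over all genes. Cd36 fell most, by 4.39 ± 0.23 on the log2 scale (SE; limma, adjusted p = 7.25e-11), and all 4 brain and retina libraries, with 3.14 to 33.7 CPM, lay below all 8 others, with 179 to 610. Pparg differed by -3.27 ± 0.30 (SE; limma, adjusted p = 4.23e-08) and Fabp4 by -2.28 ± 0.14 (SE; limma, adjusted p = 5.49e-10). At these 2 genes the groups overlapped at their edges, with at most 22.4 in brain and retina against at least 20.2 at Pparg, and at most 41.4 against at least 38.9 at Fabp4.

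Lpl differed by -2.19 ± 0.44 (SE; limma, adjusted p = 0.000312) and Meox2 by -1.58 ± 0.38 (SE; limma, adjusted p = 0.00164), and at both a peripheral library at 0 overlapped the barrier libraries. Gpihbp1 was lower by 0.53 ± 0.07 (SE; limma, adjusted p = 4.74e-06), which is below the size required though precise. Tcf15 (-0.25 ± 0.11) and Fabp5 (-0.48 ± 0.22) did not pass, with adjusted p by limma of 0.0562 and 0.0709. When each library was scaled by all its tags in place of its tags in peaks, the median of all genes moved to 0.74 and Tcf15, Fabp5 and Gpihbp1 turned to higher in brain and retina (0.48, 0.24 and 0.31), each below that median.

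The brain and retina libraries also held fewer endothelial marker tags: 4 of the 6 endothelial genes were called lower in the adult and 3 of 6 at P6, with medians of -1.16 and -0.93. Windows of several brain cell types ran the other way. In the adult 4 of 5 astrocyte genes (median 1.73), 3 of 5 oligodendrocyte genes (2.00), 3 of 8 neural genes (0.51, with 1 called lower) and 3 of 5 retinal neuron genes (1.18) were called higher, and at P6 2 of 5 (0.91), 3 of 5 (1.31), 3 of 8 (0.47) and 2 of 5 (0.67). Some lists from outside the brain were called higher too. In the adult these were 2 of 6 cardiomyocyte genes (0.68) and 1 of 5 hepatocyte genes (-0.16). At P6 they were 1 of 6 cardiomyocyte genes (0.28) and 1 of 5 kidney epithelial genes (0.44). Of 4 smooth muscle genes, 1 was lower at each age (0.03 in the adult and -0.01 at P6). Genes of 2 other cell types were called in both directions. Of 9 macrophage or microglia genes, 2 were higher and 1 lower at each age (medians -0.07 in the adult and 0.11 at P6), and of 7 pericyte genes, 2 were higher and 2 lower in the adult (0.32) and 1 higher and 2 lower at P6 (-0.03), against medians over all genes of 0.19 and 0.12. The astrocyte windows summed to 427 to 549.9 in adult brain and retina endothelium, against 98.6 to 293 in peripheral endothelium. The part of these windows in the result was not tested. With retina left out, brain alone was lower at Cd36 (-3.63), Fabp4 (-2.49) and Pparg (-2.47), with adjusted p by limma of 5.59e-07, 4.82e-08 and 8.49e-05, where 2.53% of all genes were lower. Meox2 (-1.09, limma, adjusted p = 0.147) and Lpl (-1.36, limma, adjusted p = 0.113) were not called there. Both adult brain libraries, with 25.7 and 18.3 at Fabp4, then lay below all peripheral ones. Retina and lung share 1 kind of read processing, and within it adult Cd36 stood at 9.73 and 3.14 in retina against 236 and 179 in lung, and Fabp4 at 23.1 and 41.4 against 38.9 and 55.8.

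At P6, 3 genes were lower in brain and retina: Cd36 by 2.92 ± 0.21, Fabp4 by 2.39 ± 0.13 and Pparg by 2.07 ± 0.26 on the log2 scale (SE; limma, adjusted p = 4.25e-09, 1.08e-10 and 3.4e-06). Of all genes, 9.13% were called and 3% were lower, and the members' median was -0.68 against 0.12. At all 3 genes the 6 brain and retina libraries lay below the 8 peripheral ones: 11.8 to 58.5 against 112 to 302 CPM at Cd36, 19.2 to 29.2 against 70.2 to 230 at Fabp4, and 23.2 to 45.1 against 71.9 to 257 at Pparg. Brain alone gave the same 3 genes, at -2.66, -2.49 and -2.01, where 2.86% of genes were lower. Meox2 differed by -0.79 ± 0.34, Tcf15 by -0.58 ± 0.10, Gpihbp1 by -0.50 ± 0.06, Lpl by -0.44 ± 0.39 and Fabp5 by -0.36 ± 0.19, and none of these reached the size required.

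Subtracting each organ's own input changed which genes differed. In the adult, Fabp4 (-1.62 ± 0.41), Gpihbp1 (-1.18 ± 0.20) and Pparg (-1.83 ± 0.56) were lower in brain and retina (limma, adjusted p = 0.00562, 8.58e-05 and 0.0233), where 3.07% of genes were lower. At P6 the same 3 were called, with Fabp4 at -1.63 ± 0.32, Gpihbp1 at -1.34 ± 0.16 and Pparg at -1.19 ± 0.44 (limma, adjusted p = 0.000356, 4.07e-07 and 0.0432), where 3.01% were lower. Cd36, the widest difference between endothelial libraries, was at -0.06 ± 0.49 in the adult and -0.06 ± 0.39 at P6. Its window was low in input of brain and retina as well, with 0 to 5.69 CPM in the adult against 76.4 to 269 in peripheral inputs. At Gpihbp1 the inputs ran the other way, with 140 to 174 CPM in adult brain and retina inputs and 66.6 to 127 in peripheral ones. Without retina, Gpihbp1 (-1.33, limma, adjusted p = 0.00494) and Pparg (-2.37, limma, adjusted p = 0.0482) were called in the adult, where 3.35% were lower, and Fabp4 was not (-1.39, limma, adjusted p = 0.121). At P6 without retina, Fabp4 (-2.07), Gpihbp1 (-1.31) and Fabp5 (-1.06, limma, adjusted p = 0.0353) were called, where 4.38% were lower, and Pparg was not (-1.24, limma, adjusted p = 0.0909).

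Endothelial libraries were set against inputs of the same organs to ask where the windows were more open in endothelial nuclei than in nuclei of the whole tissue. In the adult, Cd36 was higher in endothelium (1.12 ± 0.18, SE; limma, adjusted p = 0.000292) and Lpl was lower (-1.13 ± 0.38, SE; limma, adjusted p = 0.0314), where 9.51% of genes were called. The members' median was 0.54, against -0.01 over all genes. Cd36 stood higher in endothelium in 6 of 6 organs, and in 5 of them every endothelial library lay above every input. Lpl was lower in 6 of 6 organs, and in 4 of them every endothelial library lay below every input. The Lpl call was lost in 6 of the 22 fits that left out 1 library each (second kidney, first liver and second lung endothelium, first kidney, second lung and second retina input), with values from -1.10 to -0.86 and adjusted p by limma of 0.0502 to 0.0615. Without retina, where 11.3% of genes were called, Cd36 (1.23) and Lpl (-1.13) were called beside Fabp4 (1.08) and Tcf15 (1.06), with adjusted p by limma from 8.91e-05 to 0.0479. Both calls of the wide window were lost with 5 kb on each side, at 0.28 for Cd36 (limma, adjusted p = 0.374) and -0.96 for Lpl (limma, adjusted p = 0.079).

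Tcf15 was higher by 0.92 ± 0.16 (SE; limma, adjusted p = 0.000443) in the adult, and by 1.03 ± 0.09 (SE; limma, adjusted p = 4.97e-09) at P6, where it alone of the 8 passed and 7.15% of genes were called. At P6 every endothelial library lay above every input of its organ in all 6 organs, with 110 to 328 CPM against 66.1 to 124 over all organs. The P6 value sits at the required size, and it fell to 0.99 to 1.00 without the first or the second heart endothelial library, the first kidney endothelial library or the second heart input. Without retina it was 1.1, again the one gene of the 8 called, where 9.25% of genes were. Fabp4 was higher by 0.79 ± 0.29 in the adult and 0.62 ± 0.23 at P6, Gpihbp1 by 0.56 ± 0.16 and 0.49 ± 0.15, and Cd36 at P6 by 0.53 ± 0.19, all with an adjusted p under the threshold by limma but below the size required. Lpl at P6 was lower by 0.76 ± 0.19 (limma, adjusted p = 0.00252). Meox2 (0.52 ± 0.35 and -0.44 ± 0.29), Fabp5 (0.20 ± 0.19 and -0.41 ± 0.18) and Pparg (-0.06 ± 0.38 and 0.42 ± 0.24) did not pass at either age. These are means over organs that went both ways. By organ, adult values ran from -1.25 to 2.40 at Meox2, -0.94 to 0.91 at Fabp5 and -1.86 to 1.81 at Pparg. The P6 values ran from -2.26 to 0.85, -1.21 to 0.61 and -0.52 to 1.85.

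In the heart, taken alone, 7 of the 8 genes, all but Lpl, stood above the single heart input in both adult libraries, where 36% of all genes did, with Gpihbp1 at 163 and 186 against 102 and Fabp5 at 82.1 and 68.0 against 37.5. At P6 the heart libraries lay above both heart inputs at the same 7 genes, where they did so at 39.2% of all genes, among them Meox2 (53.5 and 86.3 against 35.7 and 35.5), Pparg (257 and 218 against 64.1 and 60.4) and Fabp4 (230 and 220.4 against 73.4 and 62.6). Lpl ran the other way in the heart, at 66.3 and 94.6 in P6 endothelium against 195 and 183 in P6 input. The cardiomyocyte windows of the heart inputs, 2784 to 2954 at P6, moved with this, against 788 to 893 in P6 heart endothelium. Their part in the Lpl result was not tested.

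When the window was narrowed to 5 kb on each side of a gene, the small gene Gpihbp1 changed most. It was then higher in adult heart endothelium (1.58), lower in brain and retina of adults (-3.98) and P6 mice (-2.46), and higher in endothelium than input in both ages (1.61 and 2.16), where 9.9%, 18.7%, 11.7%, 10.9% and 7.82% of genes were called. Against input, Fabp4 (1.48 and 1.12) and Tcf15 (1.68 and 1.29) were called beside it in the adult and at P6. In all, 7 of the 8 genes were then called higher in adult heart and 5 at P6, where 4.03% of genes were called in either direction, and 7 were lower in adult brain and retina and 5 at P6. Fabp5 was called in none of these comparisons. Without retina, 6 genes were called in adult heart (7.21% of all genes) and 5 at P6 (2.83%), 5 in adult brain (13.5%) and 5 at P6 (8.93%), and 3 against adult input (13%) and 4 against P6 input (10.6%). Gpihbp1 was then not called in adult heart, nor were Meox2 and Tcf15 in adult brain, and Lpl was added against P6 input (-1.29). Close to Gpihbp1 the organs thus differed by more than over the wide window, which holds its neighbours.

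Between adult and P6 endothelium, averaged over the 6 organs, 0 of the 8 genes were called by limma, where 6.49% of all genes were, and 5 had an unadjusted p under 0.05, as had 59.7% of all genes. Cd36 stood 0.42 ± 0.15 higher in the adult. Pparg (-0.60 ± 0.19), Lpl (-0.69 ± 0.28), Tcf15 (-0.20 ± 0.07) and Gpihbp1 (-0.15 ± 0.05) stood lower, Meox2 was at -0.35 ± 0.25, and Fabp4 (0.01 ± 0.09) and Fabp5 (0.03 ± 0.14) were level within their errors. Lpl was called lower without the first adult lung library (-1.03, limma, adjusted p = 1.6e-06). Without retina, Cd36 stood at 0.72, Pparg at -0.29 and Lpl at -0.22, and none was called. Scaled by all tags, the median of all genes was -0.74 and 3 members were called, where 15.7% of all genes were; Cd36 was then at -0.45. Of the marker lists, 4 of 7 pericyte genes were lower in the adult (median -1.03), as were 1 of 7 mesenchymal genes (median -0.58) and 1 of 8 neural genes (median -0.52), against 0.01 over all genes. Also lower were 2 of 6 cardiomyocyte genes (0.01), 1 of 9 macrophage or microglia genes (-0.37) and 1 of 5 oligodendrocyte genes (-0.37). So was 1 gene each of the arterial (-0.30), astrocyte (-0.23), adipocyte (0.12) and retinal neuron lists (0.18). The part of these lists in the values of the 8 genes was not tested.

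At E12 the genes differed in whether brain, heart and trunk overlapped. Meox2 held 23.9 to 32.0 CPM in brain, 29.2 to 37.7 in heart and 23.7 to 38.0 in trunk endothelium, so all 3 overlapped. Cd36 held 59.8 to 73.1, 46.5 to 102 and 76.4 to 99.7, and Fabp4 38.9 to 58.8, 51.1 to 86.9 and 63.7 to 83.6. Lpl held 41.6 to 49.5 in brain and 41.6 to 47.4 in trunk, and 91.9 to 103 in 3 of the 4 heart libraries, above both, while the third heart library held 33.4. Fabp5 held 64.5 to 77.2 in brain, 74.5 to 133 in heart and 83.8 to 100.8 in trunk, and Pparg 38.5 to 72.7, 54.9 to 102 and 73.9 to 102. Tcf15 was highest in trunk, with 237 to 262 against 202 to 215 in brain and 166 to 198 in heart, with no overlap. Gpihbp1 was lowest in heart as well, with 110 to 134 against 143 to 174 in brain and 158 to 169 in trunk, and heart did not overlap the others. Tcf15 and Pparg, alone of the 8 genes, lay above the single input of their site in all 11 libraries, where 13.1% of all genes did. These E12 levels were not tested.

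Merged over all libraries, the peaks formed 25 regions at Tcf15, 25 at Fabp5, 30 at Meox2, 31 at Gpihbp1, 35 at Fabp4, 38 at Lpl, 59 at Pparg and 63 at Cd36. Most regions named were those that most favoured endothelium over input or heart over other endothelium, so their contrasts follow from that choice. With equal numbers of top peaks, no endothelial library had a peak in the Meox2 region, the Fabp4 region 25.0 kb above its gene or the Pparg region 43.9 kb below its gene. Nor did any adult or P6 endothelial library in the Cd36 region near the upper end of that gene, where 4 had one with stricter q. The Meox2 region had none with stricter q either. These counts are descriptions and depend on list length. At Fabp4, the region chr3:10154395-10155194, 49.5 kb below the gene, had a peak in all 16 adult and P6 endothelial libraries of heart, kidney, liver and lung, in none of the 10 of brain and retina, and in 6 of 26 inputs. A region 25.0 kb above Fabp4, chr3:10233268-10233896, had a peak in 7 of 8 heart endothelial libraries of all ages, in 7 of 29 others and in no adult or P6 input. A region at the lower end of Fabp4, chr3:10204812-10205180, singled out after its values were seen, had a peak in all 4 adult and P6 heart endothelial libraries, in 1 E12 brain endothelial library and in no other of the 66.

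At Gpihbp1, chr15:75596334-75596755 lies across the lower end of the gene. It had a peak in 8 of 8 adult peripheral endothelial libraries, 0 of 4 of brain and retina, and 9 of 26 adult and P6 inputs; at P6 it also had one in 2 of 3 brain and 2 of 3 retina endothelial libraries. At Meox2, chr12:37106649-37107311, 1.56 kb outside the gene, had a peak in 2 adult and 1 P6 heart endothelial libraries and in no other library of the 66. At Pparg, chr6:115316763-115317268, 43.9 kb below the gene, had a peak in 5 of 8 heart endothelial libraries and 0 of 29 others, though also in the E12 heart input and in 3 P6 and 1 adult lung inputs, while chr6:115382518-115383336 inside the gene had one in 17 of 26 adult and P6 endothelial libraries against 8 of 26 inputs.

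At Cd36, chr5:17843236-17844840 inside the gene had a peak in 7 of 8 heart and 8 of 29 other endothelial libraries, but also in every heart input and in 8 of 26 adult and P6 inputs, and chr5:17886266-17887095, near its upper end, in 14 of 26 adult and P6 endothelial libraries against 2 of 26 inputs. At Lpl, chr8:68902645-68903646 inside the gene had a peak in 6 of 8 heart endothelial libraries and 3 of 29 others, but also in every heart input, and chr8:68898689-68899246 in 8 of 26 endothelial libraries and no input of those ages. At Tcf15, chr2:152176843-152177797, 28.2 kb above the gene, had a peak in 23 of 26 adult and P6 endothelial libraries and 8 of 26 inputs, and chr2:152155184-152156844, 6.92 kb above it, in 8 of 8 heart and 20 of 29 other endothelial libraries. At Fabp5, chr3:10051462-10052372, 35.3 kb above the gene, had a peak in 6 adult or P6 endothelial libraries, which were of heart and liver, and in no input of those ages. For Fabp5 and Gpihbp1 the regions that most favoured heart, chr3:10040406-10041568 and chr15:75648001-75648909, had peaks in 5 of 8 and 4 of 8 heart libraries against 4 of 29 others each.

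**Figure D3:**
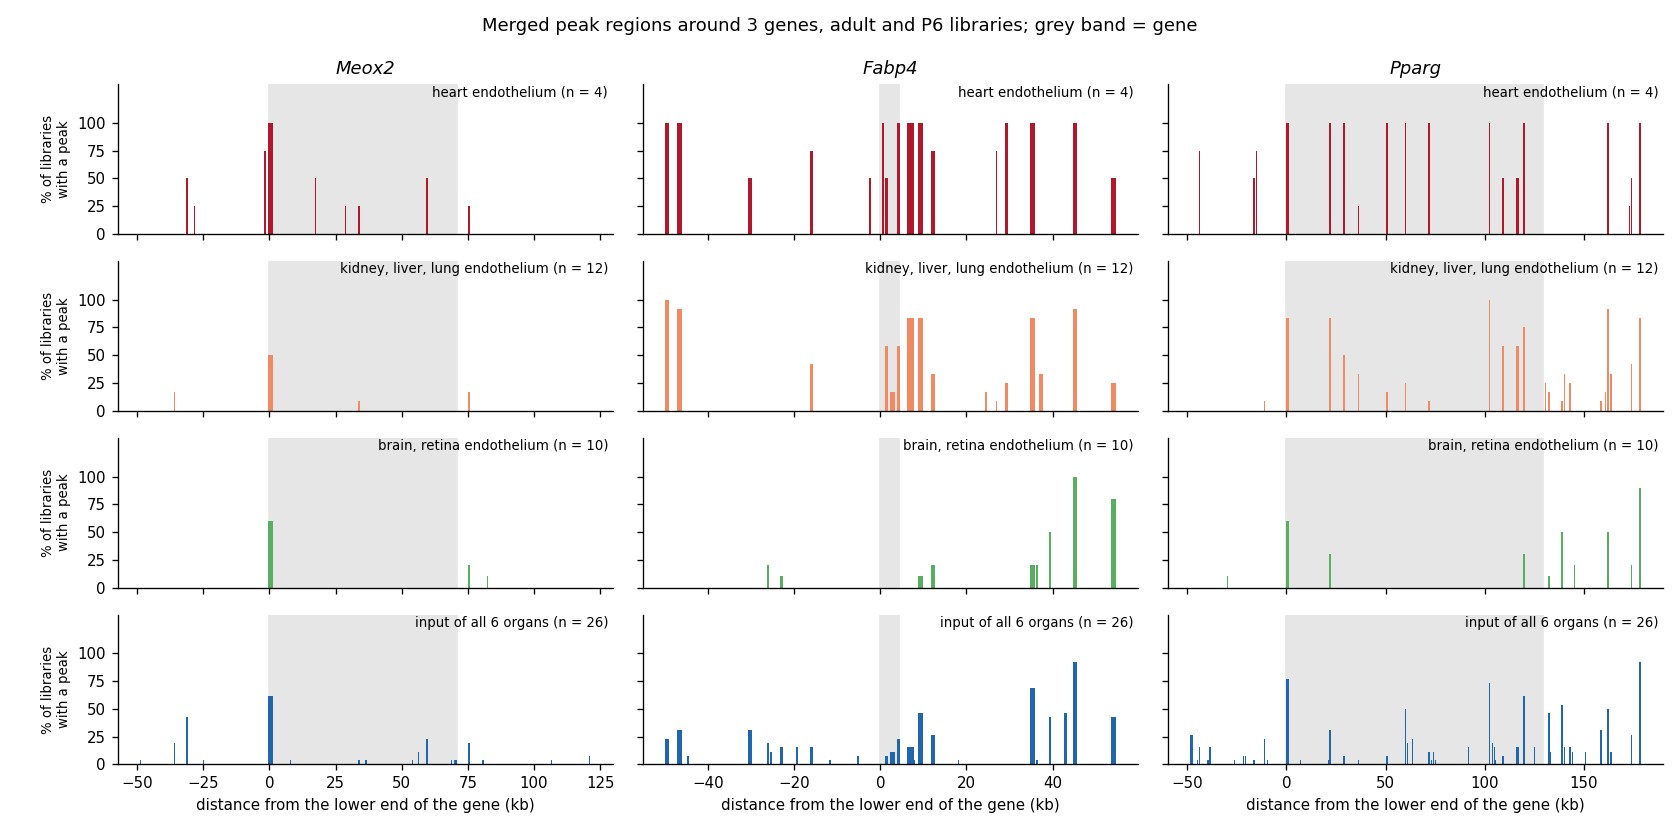
Share of libraries with a peak (vertical axis, %) in each merged region around Meox2, Fabp4 and Pparg, by distance from the lower end of the gene in kb (horizontal axis), in adult and P6 libraries of 4 kinds. The grey band is the gene. At Fabp4 the leftmost region reaches 100% in heart and in kidney, liver and lung, 0% in brain and retina and 23.1% in input.

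Across the 15 endothelial group means the 8 genes fell into patterns that partly matched. Pparg followed Fabp4 (r = 0.89) and Cd36 (r = 0.89), Fabp4 followed Cd36 (r = 0.84), and Meox2 followed Tcf15 (r = 0.86) and Lpl (r = 0.74), while Tcf15 and Fabp5 were unrelated (r = 0.00). These values describe 15 groups that share libraries, depth and read processing, and carry no test. Genes on other chromosomes with the most similar window pattern were A630076J17Rik and Prok1 for Tcf15 (both r = 0.97), Tas2r126 and Tcim for Cd36 (0.97 and 0.95), Car8 and Optc for Pparg (0.95 and 0.94), Olfr458 and Olfr457 for Fabp4 (0.93 and 0.92), Gm3411 and Gm21103 for Meox2 (0.93 and 0.92), Bcas3 and Prpf18 for Gpihbp1 (both 0.90), Elac1 and Wdfy3 for Fabp5 (0.89 and 0.84) and Adh1 and Sema6d for Lpl (both 0.89).

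The other 30 genes followed, which take part in fatty acid transport and its control, from acyl-CoA synthetases to Vegfb and its receptors, were called in both directions. In adult heart endothelium 2 of the 30 were higher, the apelin receptor Aplnr (1.5) and the Vegfb co-receptor Nrp1 (1.12), and 3 were lower, Ppargc1b (-2.83), Mfsd2a (-2.56) and Ppargc1a (-1.34), where 3.82% and 5.72% of all genes were. At P6 none were called. The list's median was -0.09 in the adult, against -0.13 over all genes. In adult brain and retina 3 were higher, Mfsd2a (3.74), Ppargc1b (2.32) and Ppargc1a (1.05), and 4 were lower, Aplnr (-1.97), Nrp1 (-1.87), Cav1 (-1.68) and Flt1 (-1.42), with a median of 0.16 against 0.19, and 10.7% of all genes were higher and 4.67% lower. At P6, Mfsd2a was higher (2.30) and Cav1 (-1.40) and Nrp1 (-1.0) were lower, where 6.13% and 3% were. In adult brain and retina the lower windows thus included the caveolar protein gene Cav1 and the Vegfb receptor genes Flt1 and Nrp1. They stood beside Cd36, Fabp4 and Pparg, while Mfsd2a ran opposite to them. Of the 6 endothelial genes, 4 were called lower in that comparison too (median -1.16). The part of endothelial content in these values was not tested. Against input, Flt1 (2.33) and Aplnr (2.18) were higher in adult endothelium beside Cav1 (1.54), and Mfsd2a (-2.17), Ppargc1b (-2.04), Ppargc1a (-1.44) and Ppara (-1.20) were lower, where 2.1% and 7.41% of all genes were. At P6 Flt1 (2.07) and Aplnr (1.82) were higher than in input and Ppargc1a (-1.42) lower, where 1.52% and 5.62% were, and between ages Mfsd2a (-1.69) and Ppargc1b (-1.44) were lower in the adult, where 6.24% were. Without retina, Nrp1 was not called in adult heart (1 higher and 3 lower, against 3.28% and 4.31% of all genes) or in P6 brain (1 and 1, against 4.38% and 2.86%). In adult brain, 3 were higher and 3 lower (8.86% and 2.53%), with Lmf1 (1.01) called in place of Ppargc1b and Flt1 not called. Against adult input Fabp3 (-1.18) was added to the lower genes (3 higher and 5 lower, against 2.65% and 8.68%). The genes called against P6 input (2.08% higher and 7.17% lower) and between ages (6.58% lower) were the same.

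In brain endothelial barcodes the 8 genes were mostly scarce, and their order changed with age. With 1 library an age no test between ages is possible; the intervals are exact 95% Poisson intervals and cover counting error only. Endothelial barcodes had median totals of 4896 to 10469 UMIs (molecules counted), and at most 1.25% of barcodes were shared between libraries of different ages. Levels are UMIs scaled to a total of 1000000 over the barcodes of a set (CPM of UMIs). Fabp5 stood at 896 CPM of UMIs at E9.5 (887 to 905), and E12.5 followed with 205, E16.5 with 21.3, P8 with 47.4 and the adult with 5.89 (4.95 to 6.97). It was found in 96.2% of E9.5 endothelial barcodes and 2.79% of adult ones. Barcodes with no endothelial gene held more Fabp5 at every age, with 1383 CPM at E9.5 and 183 in the adult. Those barcodes hold other cell types, so they are not a pure background. At E12.5, 246 of the 554 had at least 3 macrophage or microglia genes and held 951 CPM of Fabp5. The 191 with at least 3 erythroid genes held 145, against 205 in endothelial barcodes. After thinning each barcode to 1500 UMIs, adult Fabp5 was in 0.49% of endothelial and 12.7% of other barcodes.

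Meox2 was seen at E12.5 in 10.2% of barcodes, at 13.7 CPM of UMIs (12.9 to 14.5), and hardly at other ages: 0.59 at E9.5, 1.25 at E16.5, 2 UMIs in all at P8, and none in 3154 adult barcodes, which allows up to 0.129 CPM (3 UMIs). Barcodes without endothelial genes held 3.37 CPM of Meox2 at E12.5, in 1.26% of them, below the endothelial level, and 4.80 at E9.5, above it. Tcf15 was present at all ages, at 19.2, 53.6, 17.4, 5.87 and 39.7 CPM from E9.5 to adult, in 5.94 to 34.3% of barcodes. The 2 factors were both highest at E12.5, and only Tcf15 was found again in the adult. In barcodes without endothelial genes Tcf15 stood at 7.26 at E12.5 and 5.18 in the adult, below the endothelial level, but at 27.0 at E9.5, above it. At E16.5 and P8 it rested there on 1 and 4 UMIs, at 3.55 (0.090 to 19.8) and 10.2 (2.78 to 26.1), intervals that hold the endothelial 17.4 and 5.87. Pparg had 8 to 59 UMIs in a library, or 0.132 to 0.903 CPM. Barcodes without endothelial genes held more of it at E12.5 (6.22), at E16.5 (7.10) and in the adult (22.4), and none of it at E9.5 and P8.

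Gpihbp1 stood at 9.16, 28.4, 55.1, 22.3 and 2.97 CPM of UMIs from E9.5 to adult, with its highest value at E16.5, in 24.4% of barcodes. Among barcodes without endothelial genes it reached at most 2.70 CPM, and none at E16.5 and in the adult, so at E12.5 and E16.5 its endothelial level was well above theirs. In the adult those 176 barcodes were too few to set a limit below the endothelial 2.97, since 3 UMIs in them would be 5.18. Lpl stood at 8.85, 4.49, 10.6, 3.72 and 23.5 from E9.5 to adult, and was higher in barcodes without endothelial genes in every library, at 43.5 to 142. At E12.5, 400 of the 416 Lpl UMIs of those barcodes were in the 246 with at least 3 macrophage or microglia genes. The 191 erythroid barcodes of that age held 1.44 CPM of Lpl (0.175 to 5.21). Adult barcodes with at least 3 macrophage or microglia genes, 28 in number, held 714 CPM of Lpl, 568 of Fabp4, 189 of Cd36 and 160 of Pparg. Few of them carried these values, with Lpl in 5 of the 28, Fabp4 in 6, and Cd36 and Pparg in 7 each.

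**Figure D4:**
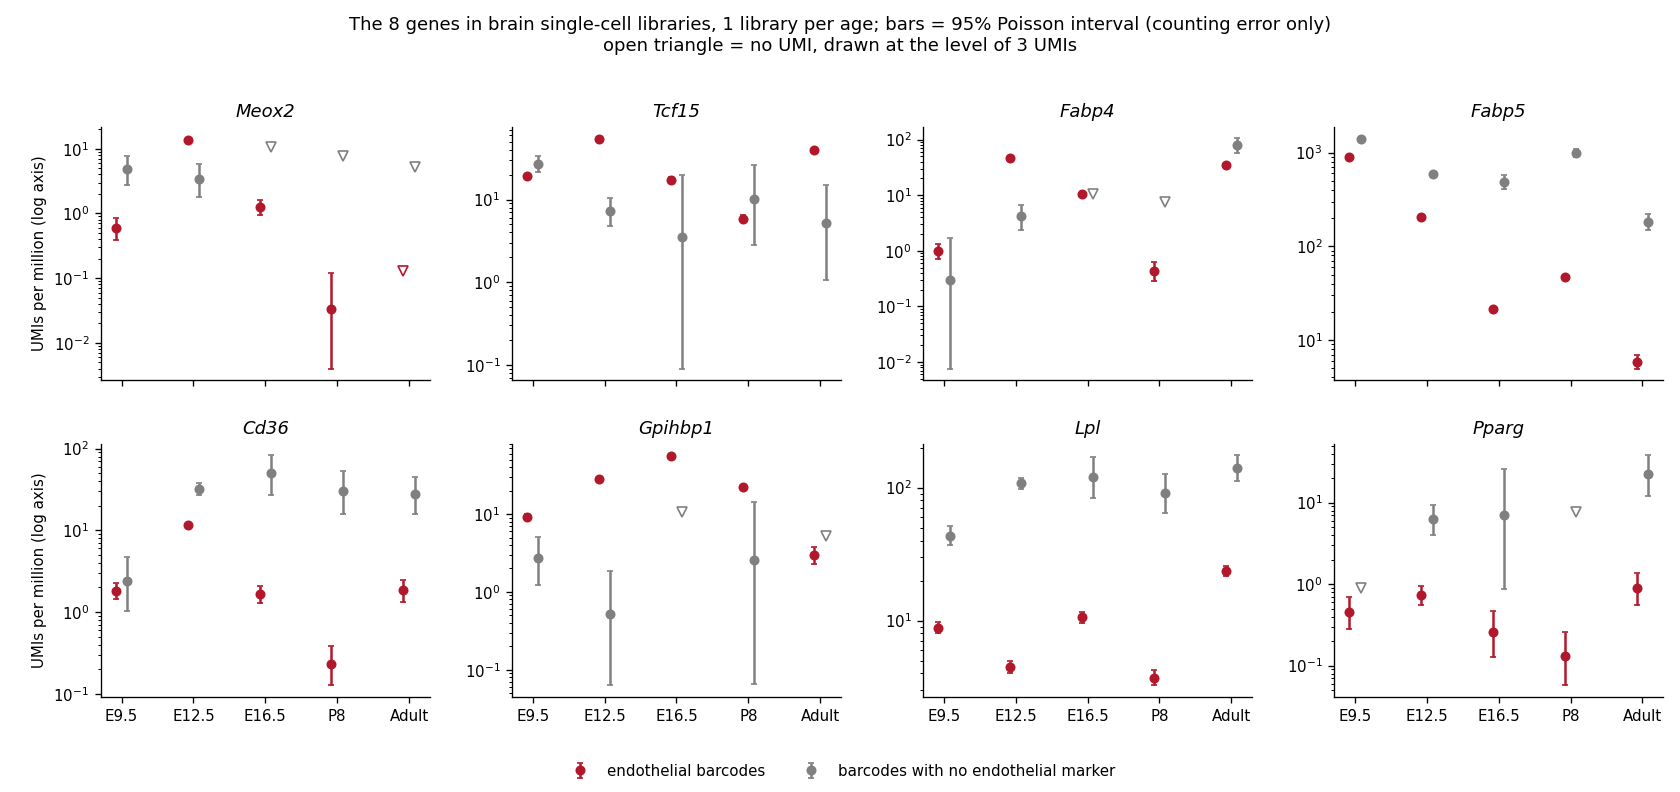
CPM of UMIs (vertical axis, log scale) of the 8 genes in brain single-cell libraries of 5 ages (horizontal axis), 1 library an age. Red points are endothelial barcodes, grey points barcodes with no endothelial gene, bars 95% Poisson intervals and open triangles the level of 3 UMIs where none was seen. Gpihbp1 is above the grey points or limits from E9.5 to P8, its adult point lies below the limit, and Lpl and Fabp5 are below the grey points at all 5 ages.

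Fabp4 stood at 0.984, 46.8, 10.3, 0.43 and 34.5 CPM of UMIs from E9.5 to adult, and Cd36 at 1.84, 11.6, 1.65, 0.232 and 1.85, so both were highest at E12.5 and lowest at P8. In barcodes with no endothelial gene Cd36 stood at 2.40, 32.1, 49.7, 30.6 and 27.6, above the endothelial value at every age. At E12.5, 123 of the 124 Cd36 UMIs of those barcodes were in the 246 with at least 3 macrophage or microglia genes. The 191 erythroid barcodes of that age held none, which allows up to 2.16 CPM (3 UMIs), against 11.6 in endothelial ones. Fabp4 in those barcodes stood at 4.15 at E12.5, below the endothelial level, and at 79.4 in the adult, above it. The adult Fabp4 level came from few barcodes. The 10 barcodes with most Fabp4 held 91.8% of its 802 adult UMIs, and a single one held 358, while 1.52% of endothelial barcodes had any. Without barcodes that held at least 2 markers of another cell type, 989 adult barcodes were left and Fabp4 stood at 0.96, Cd36 at 0.192 and Gpihbp1 at 0.192. At least 2 erythroid markers alone were in 55.1% of adult endothelial barcodes. The filter took out 93.8% of barcodes with Fabp4, whose median total was 15512 UMIs, and 68.3% of the others, with 4874.5. The part of depth and of erythroid transcripts in these values was not tested. The 10 richest barcodes of each gene held 97.7% of 43 adult Cd36 UMIs, 98.6% of 69 for Gpihbp1 and 100% of 21 for Pparg. They held 11.8% of 922 for Tcf15 and 15.2% of 547 for Lpl. Such a share is bound to be high where a gene has few UMIs. At E9.5, 21 Pparg UMIs gave 47.6%, with at most 1 in a barcode. At E12.5 such concentration was not seen, with 11.1% of 3765 UMIs for Fabp4 and 8.24% of 934 for Cd36. Fabp4 was concentrated again at E16.5 (88.2% of 439 UMIs). At P8 its 92.3% rested on 26 UMIs, and only 2 barcodes beyond the 10 had any, so that share says little.

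**Figure D5:**
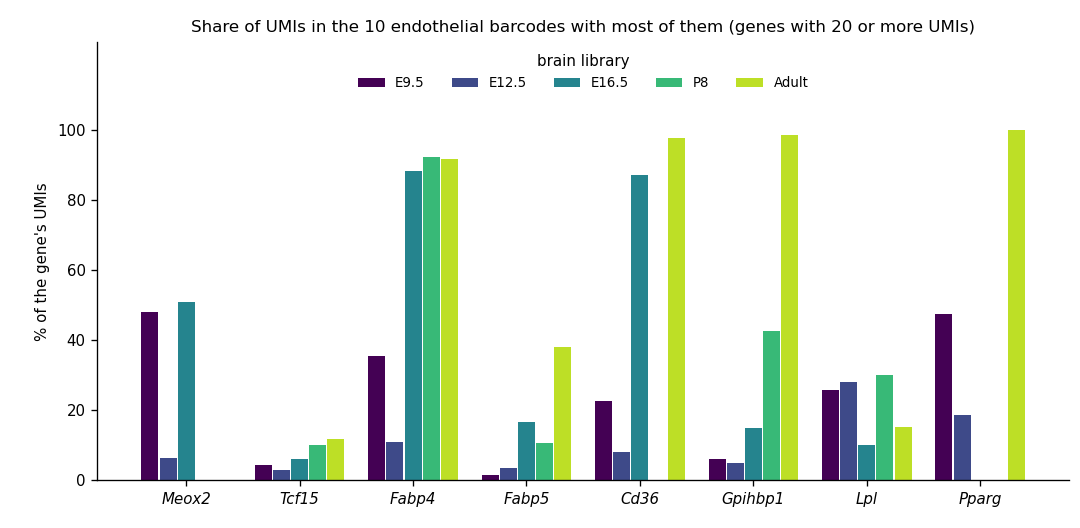
Share of a gene's UMIs (vertical axis, %) held by the 10 endothelial barcodes with most of them, for genes with at least 20 UMIs in a library, by gene and age. Adult Fabp4, Cd36, Gpihbp1 and Pparg stand above 90%, while Tcf15 stays at or below 11.8% in every library. Low totals raise the share, and adult Pparg and P8 Fabp4 rest on 21 and 26 UMIs.

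Endothelial barcodes were also split by vessel class, with at least 2 of 8 arterial or 8 venous genes and more of one kind than the other, a cut that is a range and not a cell type. The split had no capillary class, and at P8 it left 378 of 4778 barcodes in neither class. The names arterial and venous here therefore do not mean cells of arteries and veins alone. In the adult, Tcf15 stood at 61.2 CPM of UMIs in venous barcodes (56.6 to 66.2) and 17.8 in arterial ones (15.0 to 20.9), and Lpl at 34.0 (30.6 to 37.7) and 13.6 (11.2 to 16.3). At P8 Tcf15 ran the other way, with 14.3 in arterial (11.4 to 17.7) and 4.60 in venous barcodes (4.04 to 5.22). Meox2 at E12.5 stood at 15.2 in venous and 6.12 in arterial barcodes, and Gpihbp1 at E9.5 at 18.5 in arterial and 6.70 in venous ones. The P8 level of Gpihbp1 reached 181 in the 378 barcodes of neither class (165 to 198), against 16 in venous and 9.23 in arterial ones. It was 114 in the 898 barcodes of neither class when at least 3 vessel genes were required, and the 10 barcodes with most Gpihbp1 held 42.6% of its P8 UMIs. Median totals in the P8 classes were 5092.5 UMIs for neither, 8936 for venous and 8337 for arterial, and 1 library per age gives no test.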

How the data were processed

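Peaks of 66 ATAC-seq libraries were called by the authors with MACS2 in each library alone, as broad peaks at q 0.05 and 0.1 with a shift of -100 and an extension of 200 bases on mm10, per the file headers. The deposited pileup signal of each peak was multiplied by its length and divided by 200 to give tags. The deposited fold enrichment ratio and the -log10 p and q values, per the file headers, served only to describe or rank peaks. The single-cell matrices hold deposited UMI counts from Cell Ranger, per the file headers and the submitters' processing notes. Bowtie2, SAMtools 1.13 and Picard are named in the submitters' processing notes.

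A gene's value was log2(CPM of tags in called peaks + 5) within 50 kb. Genes with a peak in at least 2 libraries of a fit were tested with limma 3.58.1 in R 4.3.3, with Benjamini-Hochberg adjustment over all genes tested. Endothelial against input had organ as a term, and the other comparisons 1 mean per organ and age. The method was tested on simulated data: of 200 genes changed by a log2 difference of 2, 99% were called for adult endothelium against input over 20114 genes and 95.5% for adult heart over 20232. The changed genes were drawn from those with higher mean values and the noise was normal. Organs did not otherwise differ, and against input the change was the same in every organ. These shares therefore do not cover windows near 0 or differences that vary by organ. In single cells, a count of 0 allows up to 3 counts. The 10x barcodes were not searched for doublets. The 8 genes, the lists of other genes and the markers were chosen with earlier results of these data known. Named were the 8 genes, called genes of the list of 30 (at most 4 per direction), for each gene the 2 most similar genes on other chromosomes, and the regions that most favoured endothelium or heart. The strand of 5 genes was not at hand, so peaks were described at both ends. Nuclear RNA-seq was not used here, since no table paired its transcripts with genes. Samples were grouped by their titles. Alternatives covered scaling, peak thresholds, window, pseudocount, filter, variance, replicate block, own-organ input and single libraries. Leaving out retina, and setting heart against kidney, liver and lung, were chosen after seeing the data, alone or with input subtracted.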

Additional observations from a re-analysis of the deposited data

Results flagged for a closer look

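Among the 4 endothelial libraries of E12 heart, the third stood apart from the others at 2 genes, by the gap to its nearest neighbour over the range of the group. It held 33.4 CPM (tags in peaks scaled to 1000000 for a library) at Lpl, against 91.9 to 103 in the other 3, and 54.9 at Pparg, against 97.6 to 102. Chance alone gives such a gap in about 1 in 20 groups; 16 sets were examined, the 8 genes in E12 heart and in E12 trunk, and no trunk set stood apart. That library had 12.6% of its tags in peaks and 39096 peaks, against 101219 to 120456 peaks in the other 3, and the part of this in the gaps was not tested.

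The difference between endothelial and input libraries was itself tested between brain and retina on one side and peripheral organs on the other, and 3 of the 8 genes were lower in brain and retina at both ages, where 3.07% of all genes were in the adult and 3.01% at P6. In the adult the log2 differences were -1.62 at Fabp4, -1.18 at Gpihbp1 and -1.83 at Pparg, and at P6 they were -1.63, -1.34 and -1.19 (limma, adjusted p from 4.07e-07 to 0.0432). Without retina, Fabp4 in the adult (-1.39, limma, adjusted p = 0.121) and Pparg at P6 (-1.24, limma, adjusted p = 0.0909) were not called.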

How the results depend on the processing

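Counts of the 8 genes called moved with the setting. Shares of all genes called stand in brackets. For endothelium against input in the adult (2), 0 were called when scaled by all tags of the library (1.25%), by number of peaks (0.875%) or with a pseudocount of 20 (3.75%), 1 with a pseudocount of 1 (10.6%), 4 without retina (11.3%) and 3 others with the 5 kb window (10.9%; 3 also without retina, 13%); at P6 (1), 0 by all library tags (1.35%), centred on the median gene (7.79%), by number of peaks (0.14%) or with a pseudocount of 20 (1.99%), and 3 with the 5 kb window (7.82%; 4 without retina, 10.6%). For heart, 3 in the adult (1.88%) and 0 at P6 (0.168%) by number of peaks, 7 and 5 with the 5 kb window (9.9% and 4.03%; 6 and 5 without retina, 7.21% and 2.83%), 0 at both ages with own input subtracted (3.58% and 3.27%; also without retina, 3% and 2.76%, or against kidney, liver and lung, 5.11% and 4.02%), and 1 at P6 against kidney, liver and lung (3.47%). For brain and retina in the adult (5), 2 by all library tags (27.4%), 3 with own input (8.68%), 3 without retina (11.4%), 2 with both (7.83%) and 7 with the 5 kb window (18.7%; 5 without retina, 13.5%); at P6 (3), 5 with equal numbers of top peaks (16.2%), stricter q (10.3%) or the 5 kb window (11.7%; 5 without retina, 8.93%). For adult against P6 (0), 3 by all library tags (15.7%) and 1 with a pseudocount of 1 (13%). Leaving out 1 library gave 1 to 2 and 0 to 1 (against input, adult and P6), 5 to 6 and 2 to 4 (heart), 5 to 5 and 3 to 4 (brain and retina; at P6 Meox2 was added at -1.05 without the third brain library) and 0 to 1 (between ages). Of 592 pairs of a gene end and an endothelial library, 239 had a peak within 1 kb, 149 at the end itself and 95 with equal numbers of top peaks, where 10 of the 16 named regions kept a difference above 0. The cause of these changes was not tested, beyond fewer libraries or peaks.

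Whether replicate numbers pair the libraries could not be settled. Same-numbered endothelial and input libraries correlated above 0.1 in 4 of 8 adult and 4 of 12 P6 pairs (-0.34 to 0.34 and -0.41 to 0.37). Same-numbered endothelial libraries of a pair of organs did so in 2 of 30 adult and 16 of 30 P6 pairs (-0.19 to 0.14 and -0.27 to 0.28). Where both groups held 2 libraries, both numbers gave the same value, so these pairs are not independent. With the replicate number as a block, 1 gene, Cd36, was called for adult endothelium against input, where 7.41% of all genes were; Lpl, at -1.12 (limma, adjusted p = 0.0856), was not; and Gpihbp1 for P6 heart turned to -0.0072.

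Signs turned mostly at values near 0. Scaled by all library tags, where the median of all genes moved to -0.22 and 0.18 (heart), 0.74 and 0.35 (brain and retina) and -0.74 (between ages), they turned at Fabp5 (-0.12 against adult input, -0.13 in adult heart, 0.24 and 0.10 in adult and P6 brain and retina, -0.72 between ages), Gpihbp1 (-0.054 in adult heart, 0.31 in adult brain and retina), Tcf15 (0.48 in adult brain and retina), Fabp4 (-0.74) and Cd36 (-0.45) between ages. By number of peaks, Pparg against adult input was 0.024, Tcf15 and Gpihbp1 in P6 heart were -0.10 and -0.10, and between ages they were 0.27 and 0.018. With equal top peaks, Pparg (0.42) and P6 Meox2 (0.062) turned against input, Meox2 (0.18), Fabp5 (-0.11) and Lpl (0.021) between ages, and the Gpihbp1 region favouring heart (-10.3 percentage points). Pparg against adult input was 0.31 with stricter q, 0.057 with a pseudocount of 20 and 0.10 without retina. With the 5 kb window, Fabp5 was -0.077 in adult heart and 0.091 in P6 brain and retina, and between ages Fabp4 was -0.23 (-0.28 without retina) and Cd36 -0.037. Centring gave Fabp4 -0.072 and Fabp5 -0.049 between ages. Gpihbp1 in P6 heart was -0.0011 with a pseudocount of 20 and -0.013 without retina, where Fabp4 between ages was -0.032. Against kidney, liver and lung, Fabp5 (-0.10) and Gpihbp1 (-0.063 adult, -0.22 P6) turned in heart.

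With own input subtracted (alone; without retina; against kidney, liver and lung), Cd36 in heart was -0.061, -0.19 and -0.095 in the adult and -0.16, -0.070 and -0.20 at P6, and Lpl in P6 heart -0.44, -0.22 and -0.10. Gpihbp1 against kidney, liver and lung was then -0.23 in the adult and -0.31 at P6. In brain and retina, alone and without retina, Lpl was 0.020 and 0.037 in the adult and 0.88 and 0.51 at P6, and adult Cd36 without retina was 0.41. Leaving out 1 library turned Pparg against adult input (-0.28 to 0.20), Fabp5 in adult heart (-0.029 to 0.23), Gpihbp1 in P6 heart (-0.11 to 0.11), and Fabp4 (-0.055 to 0.066) and Fabp5 (-0.059 to 0.085) between ages. Fabp5 at E12.5, venous minus arterial, was 17.2 CPM with at least 3 vessel markers.

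Groups of 2 or 3 libraries and single inputs limit the precision, and peaks under the threshold in lists of few tags count as 0. Intervals in single cells cover counting error only.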

Other observations

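The E12.5 brain library held a set of endothelial barcodes in which several of the 8 genes were found together. Barcodes with at least 1 Fabp4 UMI numbered 818, and the 5529 others had none. In CPM of UMIs, barcodes with Fabp4 held 43.4 of Meox2 against 8.59, 48.9 of Cd36 against 5.22, 92.6 of Gpihbp1 against 17.3, 109 of Tcf15 against 44.0 and 642 of Fabp5 against 130. Lpl ran level, at 3.40 (2.43 to 4.62) against 4.68 (4.18 to 5.22). The barrier genes were lower in barcodes with Fabp4: Mfsd2a stood at 33.7 against 126, and the glucose transporter gene Slc2a1 at 466 against 1296. Plvap, a gene of fenestrated and immature vessels, stood at 674 against 500. Their median totals were 12404.5 and 10224 UMIs. A similar split was seen at E16.5, between 47 barcodes with Fabp4 and 3739 without. Meox2 there stood at 28.9 against 0.81, Cd36 at 86.7 against 0.31, Gpihbp1 at 332 against 50.8 and Mfsd2a at 275 against 504. In the 48 adult barcodes with Fabp4, Cd36 was higher (35.0 against 0.54), Tcf15 lower (21.5 against 40.4) and Meox2 absent from both sets. These sets were chosen after the values were seen, come from 1 library an age and carry no test.

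In the adult the 10 barcodes richest in Fabp4, with 5 to 358 of its UMIs each, had a median total of 20100.5 UMIs against 4886.5 in the rest. They held 60 of the 69 Gpihbp1 UMIs and 30 of the 43 Cd36 UMIs of the library, each in 2 of the 10 barcodes. Of Plvap they held 56 UMIs against 3 in all others, also in 2 of 10. At least 2 neural markers were found in 8 of the 10, pericyte and erythroid markers in 6 each, smooth muscle markers in 4, and mesenchymal and macrophage markers in 1 each. Over all adult endothelial barcodes the shares were 22.9% for neural, 12.3% for pericyte, 55.1% for erythroid, 4.09% for smooth muscle, 3.58% for mesenchymal and 0.919% for macrophage markers. The part of mixed barcodes was not tested.

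Other fatty acid genes stood at different levels by age in brain endothelial barcodes, with 1 library an age and no test, and the genes named here were chosen after their values were seen. From E9.5 to adult, Flt1 stood at 203, 340, 1022, 1229 and 3499.97 CPM of UMIs, Pnpla2, a triglyceride lipase gene, at 14.1, 26.6, 57.4, 62.4 and 174, and Cpt1a, which admits fatty acids to mitochondria, at 1.97, 21.6, 43.3, 100.3 and 92.9. Angptl4, which encodes an inhibitor of lipoprotein lipase, stood highest at E16.5 and P8, at 137 and 136, and at 47.0 in the adult. Plin2 was at 95.4 at E9.5 and 61.4 in the adult, and Aplnr at 109 and 9.33, after 472 at E12.5. Vegfb stood at 45.1, 12.3, 6.26, 11.3 and 16.6 over the 5 ages in order, below the 65.1, 17.6, 21.3, 30.6 and 43.2 of barcodes with no endothelial gene. In adult barcodes with no endothelial gene Flt1 stood at 279.7, Pnpla2 at 72.5, Cpt1a at 60.4, Angptl4 at 19.0 and Plin2 at 86.3, and Aplnr had no UMI there. Adult Plin2 rested on 50 UMIs in those barcodes, against 1427 in endothelial ones, so its lower endothelial level is uncertain.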
